A study of Komagataella pastoris with 12 samples.

Results

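The methanol utilisation enzyme genes of *Komagataella phaffii* are 6 of the 5080 rows of the deposited expression table. They were taken by their gene identifiers, and each was checked against the description that the table pairs with it. PAS_chr4_0821 is described as alcohol oxidase and is known as *AOX1*. PAS_chr4_0152 was listed with the alcohol oxidases, but the table describes it only as a hypothetical protein, so it is called by its identifier here. PAS_chr3_0832 and PAS_chr3_0834, known as *DAS1* and *DAS2*, are both described as a transketolase similar to Tkl2p, and dihydroxyacetone synthase is a transketolase that acts on formaldehyde. PAS_chr3_1028 is described as S-(hydroxymethyl)glutathione dehydrogenase, which is the activity of formaldehyde dehydrogenase, and PAS_chr3_0932 as NAD(+)-dependent formate dehydrogenase. No description named another enzyme, so all 6 were kept. PAS_chr1-4_0150, which is not among the 6, has the same description as the 2 synthase genes. The description alone thus does not tell a dihydroxyacetone synthase from another transketolase.

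In methylotrophic yeasts, alcohol oxidase converts methanol to formaldehyde and hydrogen peroxide inside the peroxisome. Dihydroxyacetone synthase joins formaldehyde to a xylulose phosphate and so starts the assimilation of its carbon, while formaldehyde dehydrogenase and formate dehydrogenase oxidise the remainder to carbon dioxide and supply NADH. These genes are known to be strongly induced by methanol and repressed by glucose, and the promoter of *AOX1* is widely used to drive recombinant proteins in this yeast.

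In the coordinates of the deposited table, the alcohol oxidase gene lies on the minus strand of chromosome 4 at chr4:1547751-1549742, and PAS_chr4_0152 on the plus strand at chr4:301802-303793. Both have a length of 1992 bases. The 2 dihydroxyacetone synthase genes, each 2124 bases long, point away from each other on chromosome 3, with PAS_chr3_0832 on the minus strand at chr3:1608584-1610707 and PAS_chr3_0834 on the plus strand at chr3:1613196-1615319. A stretch of 2488 bases separates them. The formaldehyde dehydrogenase gene is on the minus strand at chr3:1980650-1981903, with a gene length of 1140 bases in a span of 1254 bases, and the formate dehydrogenase gene is on the plus strand at chr3:1821897-1822994, with a length of 1098 bases. No other row overlapped any of the 6 genes. The sources used here do not give how reads that fit more than 1 gene were counted, so the split of reads within each pair of similar genes is uncertain.

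RNA-seq was performed on logarithmic-phase cultures of the parent and of the thermotolerant strain G14 in YPD, a rich medium with glucose, at 30 or 37 °C. The parent is a *K. phaffii* GS115 strain that expresses a recombinant lipase, given as wild type in the genotype label, and G14 is 1 isolate obtained from it by mutagenesis and stepwise adaptation to heat, picked on a plate that held methanol. The lipase cassette is therefore shared by all 4 groups, and the sources used here do not name the promoter that drives it. The groups Parent_30, Parent_37, G14_30 and G14_37 had 3 biological replicates each, 12 libraries in all.

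Levels were given as FPKM, fragments per kilobase of gene scaled by a factor for each library, so that genes of different length can be set side by side. The sum of FPKM ran from 832036 in G14_37 replicate 1 to 1187970 in Parent_30 replicate 1. The median-of-ratios factor, the median ratio of genes to their geometric mean over libraries, was 0.999 in all 12 libraries. The deposited values were thus already level by that measure. The libraries held between 13428637 and 22047040 fragments on genes, and 1 fragment on a gene of 1 kb was worth between 0.0417 and 0.0822 FPKM. Differences between groups are on the scale of log2(FPKM + 1) and were tested with limma over all 5080 rows. A call needed both an absolute log2 fold change over 1 and a p under 0.05 after Benjamini-Hochberg adjustment. G14_37 replicate 1 stood apart from the other libraries in every one of the 6 genes, and the spread that the test uses is shared by all 4 groups, so calls and counts among these genes and the other genes of the pathway are also given without that library, which leaves 2 libraries in G14_37.

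All 6 genes were detected in all 12 libraries. Outside G14_37 replicate 1, their levels summed to between 395 and 583 FPKM, which was between 0.0388 and 0.062% of all FPKM in a library. In G14_37 replicate 1 the sum was 7672 FPKM, or 0.922% of all FPKM in that library. The formaldehyde dehydrogenase gene gave between 43.6 and 77.7% of the sum in the other 11 libraries, and the formate dehydrogenase gene gave 70.6% of it in G14_37 replicate 1.

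**Figure D1:**
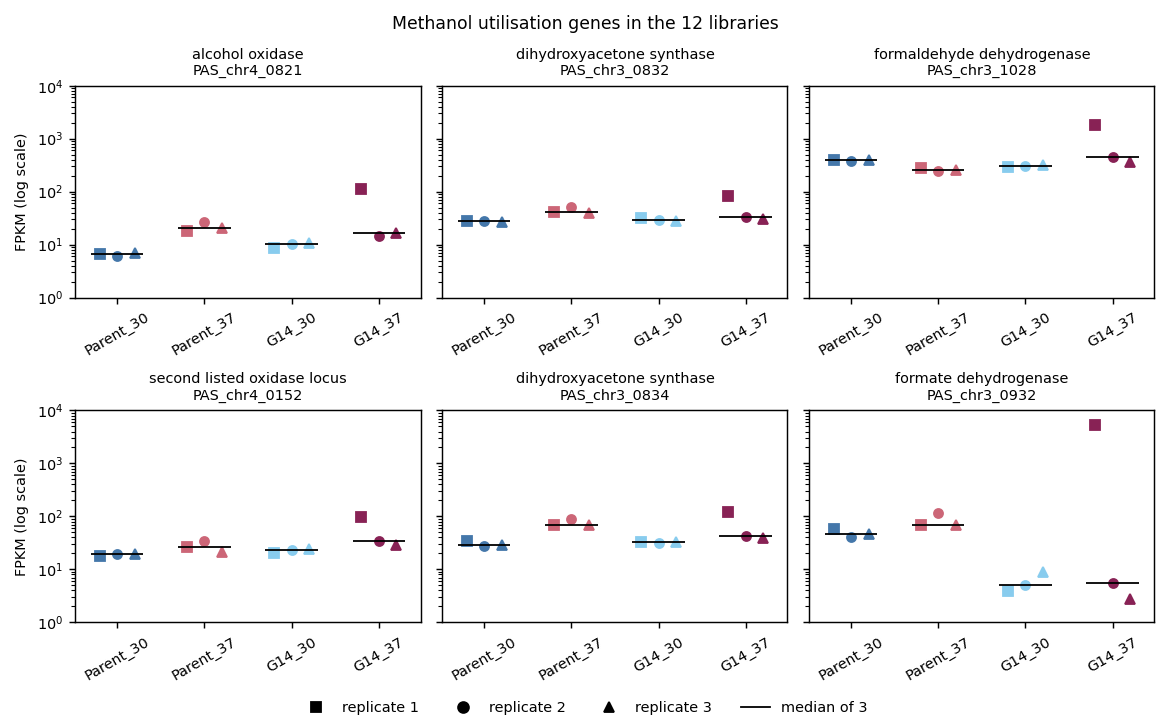
FPKM on a log scale for each of the 6 genes, by group, with a square, circle and triangle for replicates 1, 2 and 3 and a line at the median of 3. G14_37 replicate 1 is the highest of the 12 libraries in every panel, and the formate dehydrogenase gene in the other 5 G14 libraries lies between 2.79 and 9.03 FPKM, below the 6 Parent libraries.

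The order of the levels was led by formaldehyde dehydrogenase in Parent_30, with a mean of 389 ± 14.1 FPKM (SD, n = 3), followed by formate dehydrogenase at 48.0 ± 7.95 FPKM. The dihydroxyacetone synthase genes came next at 30.0 ± 3.41 FPKM for PAS_chr3_0834 and 27.6 ± 0.832 FPKM for PAS_chr3_0832, and the ranges of these neighbours in the order overlapped. PAS_chr4_0152 followed at 18.8 ± 1.06 FPKM and alcohol oxidase was lowest at 6.47 ± 0.448 FPKM. In Parent_37 the order was the same, but formate dehydrogenase overlapped PAS_chr3_0834, and PAS_chr4_0152 overlapped alcohol oxidase. In G14_30, formate dehydrogenase was instead the lowest of the 6 at 5.99 ± 2.70 FPKM, a range that overlapped that of alcohol oxidase at 9.83 ± 1.03 FPKM. In G14_37 replicates 2 and 3 it was again the lowest, with no overlap with alcohol oxidase.

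The alcohol oxidase gene, which encodes the first enzyme of the pathway, was low in the parent at 30 °C and higher at 37 °C. Its levels were 6.57, 5.98 and 6.87 FPKM in the 3 Parent_30 libraries and 17.8, 27.2 and 20.4 FPKM in the 3 Parent_37 libraries. In G14_30 they were 8.69, 10.1 and 10.7 FPKM, and in G14_37 111, 14.5 and 16.6 FPKM. The groups did not overlap between temperatures within either strain, and G14_30 lay above Parent_30. Alcohol oxidase rose in Parent_37 vs. Parent_30 by a log2 fold change of 1.59 ± 0.58 (SE, limma adjusted p = 0.0344), a ratio of means of 3.37. Without G14_37 replicate 1 the same difference had an SE of 0.15 and a limma adjusted p of 5.23e-06. With that library kept, the call was lost when any 1 of the 6 Parent libraries was left out (largest limma adjusted p = 0.107), with log2 fold changes between 1.43 and 1.72, and with voom (adjusted p = 0.0854). In G14_37 vs. G14_30 the log2 fold change was 1.53 ± 0.58 (limma adjusted p = 0.0729), and without replicate 1 it was 0.61 ± 0.16 (limma adjusted p = 0.0254), below the fold that a call needs. Against Parent_30, the gene rose in G14_37 by 2.07 ± 0.58 on the log2 scale (limma adjusted p = 0.0126), or by 1.14 ± 0.16 without replicate 1 (limma adjusted p = 0.000274).

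PAS_chr4_0152 had higher levels than alcohol oxidase in 11 of the 12 libraries. Its levels were 17.6, 19.6 and 19.1 FPKM in Parent_30 and 27.0, 33.6 and 21.5 FPKM in Parent_37. They were 20.6, 23.1 and 24.6 FPKM in G14_30 and 97.5, 34.6 and 28.2 FPKM in G14_37. The 37 °C libraries were above the 30 °C libraries of the same strain, with a narrow gap in both. The log2 fold change was 0.50 ± 0.36 in Parent_37 vs. Parent_30 (limma adjusted p = 0.249) and 0.98 ± 0.36 in G14_37 vs. G14_30 (limma adjusted p = 0.0656), or 0.44 ± 0.16 without replicate 1 (limma adjusted p = 0.0747). PAS_chr4_0152 rose in G14_37 vs. Parent_30 by 1.25 ± 0.36 (limma adjusted p = 0.0142), and the call ended without G14_37 replicate 1, where the log2 fold change was 0.71 ± 0.16.

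The dihydroxyacetone synthase gene PAS_chr3_0834, whose product takes formaldehyde into assimilation, rose in the parent with temperature. Its levels were 33.9, 27.4 and 28.8 FPKM in Parent_30 and 69.6, 87.7 and 69.2 FPKM in Parent_37. In G14_30 they were 32.4, 32.0 and 33.0 FPKM, and in G14_37 121, 43.2 and 38.9 FPKM. All 3 Parent_37 libraries were above every 30 °C library of either strain, and G14_37 replicates 2 and 3 lay between the 30 °C libraries and Parent_37. The log2 fold change in Parent_37 vs. Parent_30 was 1.30 ± 0.33 (limma adjusted p = 0.00594), a ratio of means of 2.52. The call was kept when any 1 of the 6 Parent libraries was left out, with log2 fold changes between 1.19 and 1.39 and a largest limma adjusted p of 0.0273. In G14_37 vs. G14_30 it was 0.84 ± 0.33 (limma adjusted p = 0.0827), or 0.33 ± 0.12 without replicate 1. Against Parent_37, G14_37 differed by -0.34 ± 0.33 (limma adjusted p = 0.397), and without replicate 1 it was -0.86 ± 0.12 (limma adjusted p = 0.000137), below the fold that a call needs.

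The second gene of the divergent pair, PAS_chr3_0832, moved less. Its levels were 28.5, 27.6 and 26.8 FPKM in Parent_30 and 41.3, 50.6 and 39.6 FPKM in Parent_37. In G14_30 they were 31.3, 28.9 and 28.1 FPKM, and in G14_37 82.1, 32.5 and 30.3 FPKM. Parent_37 did not overlap Parent_30, while G14_37 overlapped G14_30. PAS_chr3_0832 was called in none of the comparisons, with a log2 fold change of 0.64 ± 0.29 in Parent_37 vs. Parent_30 (limma adjusted p = 0.0807). Without G14_37 replicate 1 that difference had a limma adjusted p of 0.000159 and stayed below the fold that a call needs.

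The formaldehyde dehydrogenase gene PAS_chr3_1028, which encodes the first step of formaldehyde oxidation, differed from the other genes in its direction in the parent. Its levels were 400, 373 and 394 FPKM in Parent_30 and 280, 244 and 259 FPKM in Parent_37. In G14_30 they were 298, 304 and 316 FPKM, and in G14_37 1845, 453 and 358 FPKM. The 37 °C libraries were all below the 30 °C libraries in the parent and all above them in G14. The log2 fold change was -0.57 ± 0.46 in Parent_37 vs. Parent_30 (limma adjusted p = 0.298) and 1.13 ± 0.46 in G14_37 vs. G14_30 (limma adjusted p = 0.0912). The difference between these heat responses was 1.70 ± 0.65 (limma adjusted p = 0.0627), and without replicate 1 it was 0.97 ± 0.15 (limma adjusted p = 0.000658), under the fold that a call needs. In G14_37 vs. Parent_37 the gene was called with a log2 fold change of 1.36 ± 0.46 (limma adjusted p = 0.0256), and without replicate 1 it was 0.62 ± 0.11 (limma adjusted p = 0.000717) and no longer called. The call was also lost without any 1 of the 3 Parent_37 libraries (largest limma adjusted p = 0.071).

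The formate dehydrogenase gene PAS_chr3_0932, which encodes the last step of the oxidation to carbon dioxide, had the widest range of the 6. Its levels were 56.8, 41.3 and 45.8 FPKM in Parent_30 and 68.7, 117 and 69.6 FPKM in Parent_37. They were 3.86, 5.09 and 9.03 FPKM in G14_30, and in G14_37 they were 5415, 5.52 and 2.79 FPKM. In 5 of the 6 G14 libraries the gene was below every Parent library, and in G14_37 replicate 1 it was above them all. The low values rested on between 60 and 226 fragments, with ranks of 4988 to 5066 among the 5080 rows, and the high value on 108448 fragments, with a rank of 3.

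The ratio of mean FPKM of formate dehydrogenase in Parent_30 to that in G14_30 was 8.0. The log2 fold change in G14_30 vs. Parent_30 was -2.86, with an SE of 2.07 and a limma adjusted p of 0.345 when all 12 libraries entered the fit. Neither of these groups holds G14_37 replicate 1. In a fit without it, the SE was 0.30 and the limma adjusted p was 4.56e-05, and in a fit of the 2 compared groups alone it was 0.000293. The gene was thus called lower in G14_30 by both of these fits. At 37 °C, the log2 fold change in G14_37 vs. Parent_37 was -0.71 ± 2.07 with replicate 1 and -4.07 ± 0.34 without it (limma adjusted p = 3.30e-06). Against Parent_30, the log2 fold change in G14_37 was 0.08 ± 2.07 with replicate 1 and -3.29 ± 0.34 without it (limma adjusted p = 3.36e-05). With replicate 1 kept, the sign in that comparison was not settled, as it was also negative with voom (-0.16) and without Parent_30 replicate 2 (-0.02).

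In Parent_37 vs. Parent_30, 2 of the 6 genes were called up and 0 down, where 14% of all rows were called up and 21.6% in either direction. All 6 genes had groups that did not overlap, 5 of them higher at 37 °C, where 76.4% of all rows did not overlap. In G14_37 vs. G14_30, 0 of the 6 were called by limma, against 2.22% of all rows called up, 1.56% down and 3.78% in either direction. There, 4 genes did not overlap, all higher at 37 °C, against 42.1% of all rows, and the count was also 4 without replicate 1, against 51.9%. At an unadjusted p under 0.05, 4 of the 6 passed in this comparison, namely alcohol oxidase, PAS_chr4_0152, PAS_chr3_0834 and formaldehyde dehydrogenase. The share of all rows under that unadjusted p was not taken, so this count is not read as a result about the 6. At a limma adjusted p under 0.05, 0 of the 6 passed, against 1288 of all 5080 rows. With limma voom on recovered fragments, 0 of the 6 were called. The same 4 genes were called when G14_37 replicate 3 was left out, where 423 of all 5080 rows were called, against 192 with all libraries. The count was 1 of the 6 when replicate 2 was left out, a fit whose number of all rows called is not given here. In G14_30 vs. Parent_30, 0 of the 6 were called, against 7.36% of all rows, and voom called 0. There, 0 passed at an unadjusted p under 0.05, while 1454 of all 5080 rows had a limma adjusted p under 0.05. In that comparison 4 genes did not overlap, against 59.5% of all rows. In G14_37 vs. Parent_37, 1 gene was called, against 21.7% of all rows, and 1 did not overlap, against 58.3%. Without replicate 1, 5 genes did not overlap there, against 73.4%, with formaldehyde dehydrogenase higher in G14_37 and alcohol oxidase, both synthase genes and formate dehydrogenase lower. These same 5 genes had a limma adjusted p under 0.05 in that fit, where 65.2% of all rows did. The number of the 6 called there was 2 without G14_37 replicate 3 and 0 without any 1 of the Parent_37 libraries. The numbers of all rows called in those fits are not given here. In G14_37 vs. Parent_30, which shares its groups with the comparisons above, 2 were called, against 12.9%, and 4 did not overlap, all higher, against 57.1%. Without replicate 1, 4 were higher and 1 lower without overlap, against 70.8%. When G14_37 replicate 3 was left out instead, 4 genes were called, and the number of all rows called there is not given here. For the difference in heat response, 0 of the 6 were called, against 15.4% of all rows, of which 4.31% were positive and 11.1% negative. Formaldehyde dehydrogenase had an unadjusted p under 0.05 for that difference and was the 1 gene called there by voom. The number of all rows called by voom is not given here. In fits of the 2 compared groups alone, the call of formaldehyde dehydrogenase in G14_37 vs. Parent_37 (limma adjusted p = 0.0986) and those of alcohol oxidase (0.0711) and PAS_chr4_0152 (0.0689) in G14_37 vs. Parent_30 were lost. Testing against the fold threshold itself with limma treat gave 0 calls among the 6 genes in every comparison. It called between 2 and 452 of all 5080 rows.

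The median log2 fold change of the 6 genes was 0.71 for heat in the parent and 1.05 for heat in G14. It was 0.10 for G14 against the parent at 30 °C, 0.23 at 37 °C and 0.87 for G14_37 vs. Parent_30. The medians over all 5080 rows were 0.04, 0.00, -0.03, 0.05 and -0.01 in the same order. Without G14_37 replicate 1, the median of the 6 was 0.36 for heat in G14, -0.45 for G14 against the parent at 37 °C, where the sign turned, and 0.31 for G14_37 vs. Parent_30, with medians over all rows of 0.01, 0.01 and -0.03. The median difference in heat response was 0.21 with that library and -0.76 without it. Without G14_37 replicate 1, all 6 genes had a limma adjusted p under 0.05 in Parent_37 vs. Parent_30, 5 of them higher at 37 °C, where 69.2% of all rows did. Their calls in that comparison were still 2, for alcohol oxidase and PAS_chr3_0834, where 22% of all rows were called. Between temperatures in G14, 0 were called without that library, against 2.05% of all rows, and 2 had a limma adjusted p under 0.05, against 23.6%. Formate dehydrogenase was then called down in G14_30 vs. Parent_30, where 5.04% of all rows were called down and 8.03% in either direction. It was the 1 gene of the 6 called in G14_37 vs. Parent_37, where 22.9% of all rows were called. Alcohol oxidase was called up in G14_37 vs. Parent_30 and formate dehydrogenase was called down there, where 5.18% and 6.67% of all rows were called in these directions and 11.9% in either. An adjusted p under 0.05 was reached by 3 of the 6 in G14_30 vs. Parent_30, against 41.4% of all rows, and by 4 in G14_37 vs. Parent_30, against 54.8%. For the difference in heat response, 0 of the 6 were called, against 17.1% of all rows, and 4 had a limma adjusted p under 0.05, 1 positive and 3 negative, against 45.9%. Scaling to TPM gives every library the same sum of values and so undoes the scaling that the deposited values already had. It moved the median of all rows to between 0.10 and 0.39 in the 6 contrasts. The members called then numbered 4 in G14_37 vs. G14_30, 2 in G14_37 vs. Parent_37 and 5 in G14_37 vs. Parent_30. The number of all rows called with TPM is not given here, so these counts are not read as a trait of the 6 genes.

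**Figure D2:**
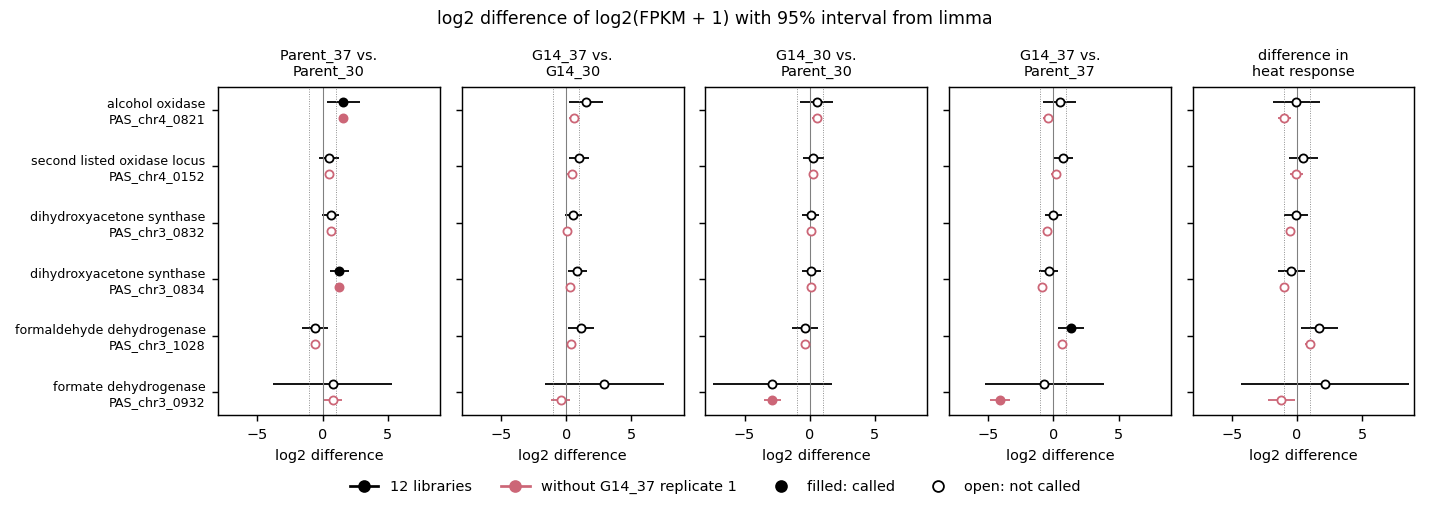
Difference of log2(FPKM + 1) for each gene in 4 comparisons and in the difference in heat response, with the 95% interval from limma, fitted on 12 libraries (black) and without G14_37 replicate 1 (red). Filled points were called and dotted lines mark a log2 difference of 1 in each direction. The interval of formate dehydrogenase in G14_30 vs. Parent_30 runs from -7.43 to 1.70 with all libraries and from -3.54 to -2.19 without that library.

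The levels of the 2 similar genes of a step were compared within each library, since FPKM is per length. The ratio of PAS_chr4_0152 to alcohol oxidase was between 2.67 and 3.28 in Parent_30 and between 1.06 and 1.51 in Parent_37. In G14_30 it was between 2.29 and 2.37, and in G14_37 it was 0.878, 2.39 and 1.70. PAS_chr4_0152 was thus the higher of the 2 except in G14_37 replicate 1. The log2 ratio changed by -1.21 in Parent_37 vs. Parent_30 (exact permutation test, two-sided, p = 0.1, adjusted p = 0.143 over 10 comparisons), and 0.1 is the smallest p that 3 against 3 libraries allow. The ratio of PAS_chr3_0834 to PAS_chr3_0832 was between 0.992 and 1.19 in Parent_30, between 1.69 and 1.75 in Parent_37, between 1.03 and 1.18 in G14_30 and between 1.29 and 1.48 in G14_37. The 37 °C groups did not overlap the 30 °C groups, and Parent_37 did not overlap G14_37. The log2 ratio changed by 0.67 in Parent_37 vs. Parent_30 and by 0.30 in G14_37 vs. G14_30, and it was lower by 0.34 in G14_37 than in Parent_37, each with the smallest exact p of 0.1.

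**Figure D3:**
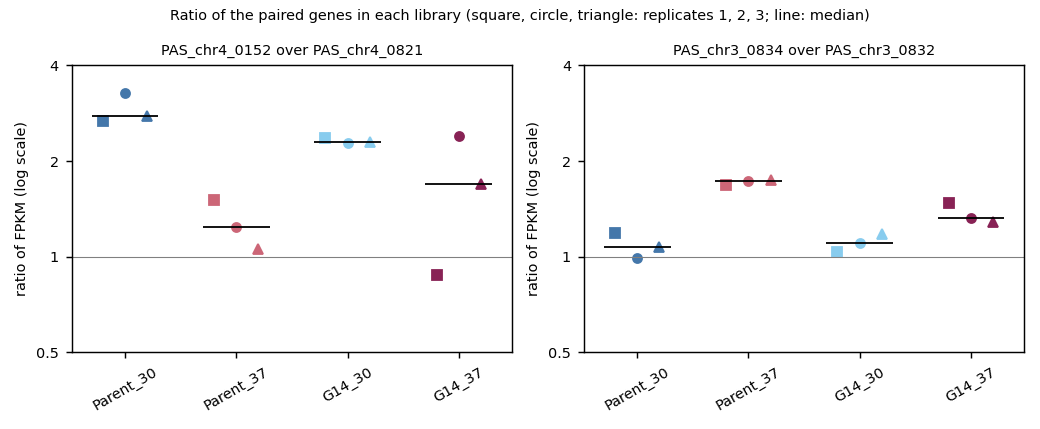
Ratio of FPKM within each library, on a log scale, of PAS_chr4_0152 to the alcohol oxidase gene (left) and of PAS_chr3_0834 to PAS_chr3_0832 (right), with a square, circle and triangle for replicates 1, 2 and 3 and a line at the median. The ratio of the synthase genes lies between 1.69 and 1.75 in the 3 Parent_37 libraries, above all other libraries.

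In G14_37 replicate 1, all 6 genes were above the mean of replicates 2 and 3 by more than 1 on the log2 scale. Of all 5080 rows, 329 or 6.48% were, and the median of all rows was 0.01. The formate dehydrogenase gene was higher by 1304-fold, the largest excess of any row. Alcohol oxidase was higher by 7.15-fold, formaldehyde dehydrogenase by 4.55-fold, PAS_chr4_0152 by 3.11-fold, PAS_chr3_0834 by 2.95-fold and PAS_chr3_0832 by 2.62-fold. The excess was thus uneven among the genes of the pathway. Its second place over all rows was held by PAS_chr3_0836, a hypothetical protein gene 1785 bases beyond PAS_chr3_0834, at 175-fold. Some of the other rows among the 20 with the largest excess, chosen after their values were seen, encode enzymes of gluconeogenesis, of fatty acid oxidation and of the glyoxylate cycle. Phosphoenolpyruvate carboxykinase (PAS_FragB_0061) was higher by 53.9-fold, fatty-acyl coenzyme A oxidase (PAS_chr1-4_0538) by 44.3-fold and isocitrate lyase (PAS_chr1-4_0338) by 26.1-fold.

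**Figure D4:**
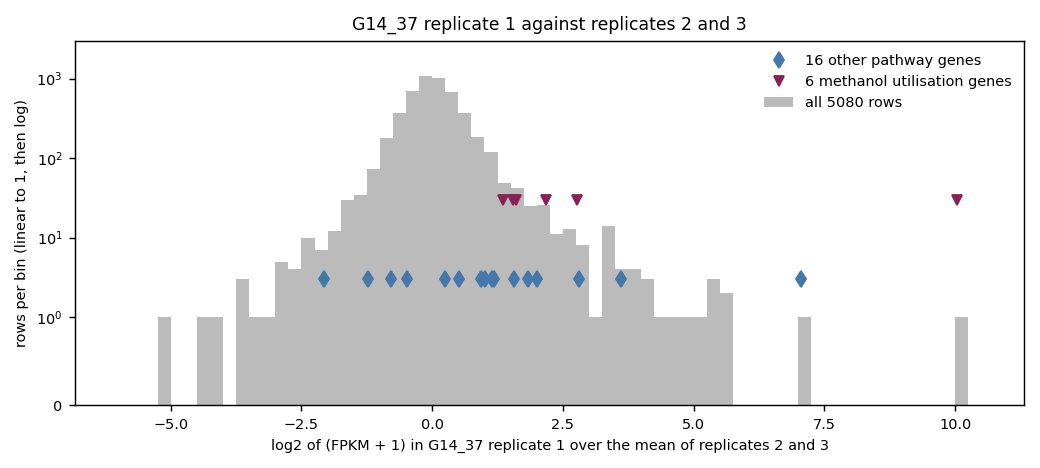
Histogram of the log2 ratio of FPKM + 1 in G14_37 replicate 1 to the mean of replicates 2 and 3 for all 5080 rows (count axis linear to 1 and logarithmic above), with the 6 methanol utilisation genes as triangles and the 16 other pathway genes as diamonds at arbitrary heights. All 6 triangles lie above 1, and formate dehydrogenase stands at 10.04.

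The other genes of methanol metabolism were taken as a list of 16, chosen with earlier results of these data known: 13 enzymes taken by their descriptions, that act on hydrogen peroxide, on S-formylglutathione or in the rearrangement of sugar phosphates, and 3 rows listed as regulators by their identifiers. In Parent_37 vs. Parent_30, 3 of the 16 rose and 3 fell, where 14% of all rows were called up and 7.56% down. Without G14_37 replicate 1, 4 rose and 3 fell, where 22% of all rows were called in either direction. Catalase (PAS_chr2-2_0131), which removes the hydrogen peroxide that alcohol oxidase makes, was at 72.0, 70.1 and 60.7 FPKM in Parent_30 and 261, 339 and 197 FPKM in Parent_37. It was at 98.8, 97.3 and 115 FPKM in G14_30 and 1959, 264 and 297 FPKM in G14_37. The 37 °C libraries of catalase lay above the 30 °C libraries in both strains. It rose by 1.93 ± 0.59 on the log2 scale in the parent (limma adjusted p = 0.0159) and by 2.36 ± 0.59 in G14 (limma adjusted p = 0.0177), or by 1.43 ± 0.19 in G14 without replicate 1 (limma adjusted p = 0.00200). The parent call was lost without Parent_37 replicate 2, where the log2 fold change was 1.74 (limma adjusted p = 0.0602). In G14_37 vs. G14_30 catalase was the 1 gene of the 16 that was called, against 3.78% of all rows. That call was lost without G14_30 replicate 1 (limma adjusted p = 0.0519) or replicate 3 (0.0520), in a fit of the 2 groups alone (0.111) and with limma treat.

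The table holds 2 genes each for fructose-bisphosphate aldolase, transaldolase and ribose-5-phosphate ketol-isomerase, and the members of each pair differed. The aldolase gene PAS_chr1-1_0319 rose by 1.45 ± 0.15 in Parent_37 vs. Parent_30 (limma adjusted p = 1.36e-05), while the aldolase gene PAS_chr1-1_0072 changed by -3.14 ± 0.62 (limma adjusted p = 0.00118). In G14_37 vs. Parent_37 the former fell by 1.64 on the log2 scale and the latter rose by 1.63, both called. The call of PAS_chr1-1_0072 there was lost without any 1 Parent library (largest limma adjusted p = 0.108) and without G14_37 replicate 2 or 3, with log2 fold changes of 0.91 and 1.73, and in a fit of the 2 groups alone. Without G14_37 replicate 1 it was 2.25 and called. PAS_chr1-1_0072 varied within the G14 groups, at 4301, 4123 and 1277 FPKM in G14_30 and 709, 4521 and 1466 FPKM in G14_37. The transaldolase gene PAS_chr2-2_0338 rose in Parent_37 vs. Parent_30 by 1.29 ± 0.43 (limma adjusted p = 0.0222), from between 8.61 and 10.1 FPKM to between 23.4 and 25.4 FPKM. That call was lost without Parent_30 replicate 1, Parent_37 replicate 2 or Parent_37 replicate 3 (largest limma adjusted p = 0.0610) and with voom (0.0640). PAS_chr2-2_0338 was also called up in G14_37 vs. Parent_30, at 1.56 with all libraries, and that call ended without G14_37 replicate 1, at 0.89, and in a fit of the 2 groups alone.

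The ketol-isomerase gene PAS_chr4_0212 was between 20.7 and 22.9 FPKM in Parent_30, between 27.2 and 31.7 FPKM in Parent_37, between 70.0 and 101 FPKM in G14_30 and between 61.7 and 134 FPKM in G14_37. The G14 libraries were all above the Parent libraries. It rose by 1.84 ± 0.24 in G14_30 vs. Parent_30 (limma adjusted p = 0.000186), by 1.51 in the same contrast at 37 °C and by 1.92 in G14_37 vs. Parent_30. The neighbouring ketol-isomerase gene PAS_chr4_0213 and the triose-phosphate isomerase gene PAS_chr3_0951 fell in Parent_37 vs. Parent_30, by 1.07 and 1.71 on the log2 scale, and the call of PAS_chr4_0213 was lost without Parent_37 replicate 2, at -0.99, and with TPM, at -0.95. Dihydroxyacetone kinase (PAS_chr3_0841), which phosphorylates the dihydroxyacetone that the synthases make, was at 360, 335 and 263 FPKM in Parent_30 and 147, 145 and 107 FPKM in G14_30. It fell by 1.26 on the log2 scale in G14_30 vs. Parent_30 (limma adjusted p = 0.0108). In that comparison 1 of the 16 rose and 1 fell, against 2.87% and 4.49% of all rows. Without G14_37 replicate 1, the counts were 1 and 2, where 5.04% of all rows were called down and 8.03% in either direction. In G14_37 vs. Parent_37, 2 rose and 1 fell, against 7.42% and 14.3%. Without replicate 1, 2 rose and 4 fell there, against 7.52% and 15.4%. Against Parent_30, 3 rose and 0 fell in G14_37, against 5.91% and 7.01%. Without replicate 1, catalase and PAS_chr4_0212 rose there and PAS_chr3_0836 and fructose-1,6-bisphosphatase (PAS_chr3_0868) fell, 2 in each direction, against 5.18% and 6.67%.

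**Figure D5:**
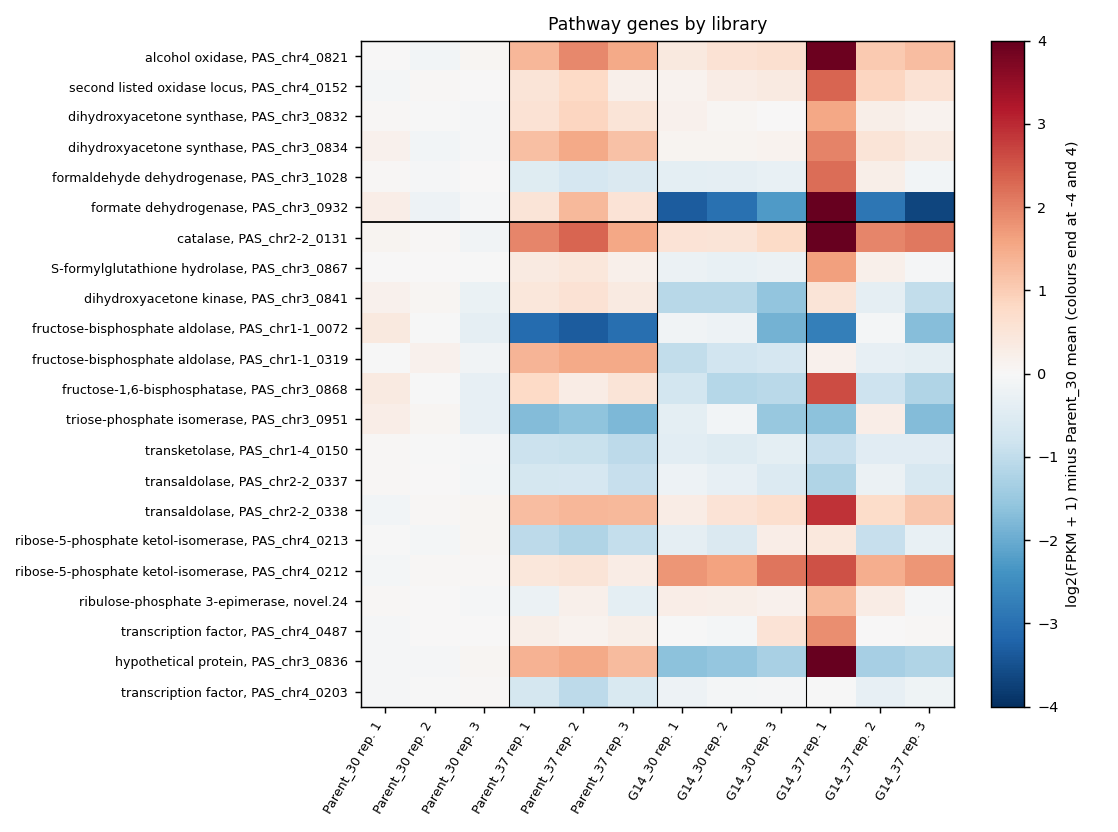
Difference of log2(FPKM + 1) from the Parent_30 mean in each of the 12 libraries for the 6 methanol utilisation genes (above the line) and the 16 other pathway genes (below it), with colours that end at -4 and 4. Formate dehydrogenase and the hypothetical protein gene PAS_chr3_0836 are lower in 5 of the 6 G14 libraries and at the top of the scale in G14_37 replicate 1.

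The 3 rows listed as regulators had unlike patterns. PAS_chr4_0487, described as a carbon source-responsive zinc-finger transcription factor, was between 25.6 and 39.8 FPKM in 11 libraries and at 100 FPKM in G14_37 replicate 1. PAS_chr4_0203, described as a proposed transcriptional activator of the zinc cluster family, was between 40.0 and 41.9 FPKM in Parent_30 and between 19.4 and 26.6 FPKM in Parent_37, while G14 had between 35.7 and 39.9 FPKM at 30 °C and between 32.6 and 40.7 FPKM at 37 °C. Neither was called in any comparison. PAS_chr3_0836, to which the table gives no role, was at 8.71, 8.54 and 9.56 FPKM in Parent_30 and 24.9, 27.7 and 22.6 FPKM in Parent_37. It was at 2.16, 2.38 and 3.01 FPKM in G14_30 and 543, 2.91 and 3.29 FPKM in G14_37. It resembled formate dehydrogenase in being low in 5 of the 6 G14 libraries and very high in G14_37 replicate 1. With all libraries it was called in no comparison. Without that library its log2 fold change was 1.39 in Parent_37 vs. Parent_30, and against the parent G14 had -1.50 at 30 °C and -2.67 at 37 °C, all called.

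The rows whose descriptions name the peroxisome, the organelle that houses alcohol oxidase, dihydroxyacetone synthase and catalase, numbered 36. Of these, 9 rose and 0 fell in Parent_37 vs. Parent_30, where 14% of all rows were called up and 7.56% down, and 4 rose when Parent_37 replicate 2 was left out. In G14_37 vs. G14_30, 5 rose and 0 fell, against 2.22% and 1.56%, or 2 and 0 without G14_37 replicate 1, against 1.22% and 0.827%. The number that rose there was 12 without G14_37 replicate 3 and 0 in a fit of the 2 groups alone. In G14_30 vs. Parent_30, 0 rose and 1 fell, against 2.87% and 4.49%. At 37 °C, 1 rose and 5 fell in G14 against the parent, against 7.42% and 14.3%, or 0 and 10 without replicate 1, against 7.52% and 15.4%. In G14_37 vs. Parent_30, 7 rose and 0 fell, against 5.91% and 7.01%, or 3 and 0 without replicate 1, against 5.18% and 6.67%.

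Likeness between genes was described by Pearson's r of log2 values, over 12 points that share the 4 groups. Formate dehydrogenase was most like PAS_chr1-4_0327 (r = 0.98) and PAS_chr3_0836 (r = 0.98), both hypothetical proteins, and fructose-1,6-bisphosphatase (PAS_chr3_0868, r = 0.97). Alcohol oxidase was most like an arabinose dehydrogenase gene (PAS_chr2-1_0775, r = 0.99), the transaldolase gene PAS_chr2-2_0338 (r = 0.99) and PAS_chr4_0978 (r = 0.98). PAS_chr4_0152 was most like PAS_chr3_0864 (r = 0.98), PAS_chr4_0268 (r = 0.97) and the biotin ligase gene PAS_chr3_0569 (r = 0.97). Over the 11 libraries without G14_37 replicate 1 the leading gene was another one for 5 of the 6 genes, and for formate dehydrogenase it was PAS_chr1-4_0630, a putative methyltransferase gene (r = 0.98). PAS_chr3_0832 was most like a subunit gene of a peroxisomal transporter (PAS_chr3_0822, r = 0.99), PAS_chr2-2_0484 (r = 0.98) and the vacuolar proteinase B gene (PAS_chr1-4_0548, r = 0.97). PAS_chr3_0834 was most like PAS_chr3_1215 (r = 0.99), PAS_chr4_0321 (r = 0.98) and PAS_chr3_0278 (r = 0.98), the last similar to monocarboxylate permeases. Formaldehyde dehydrogenase was most like PAS_chr4_0266, similar to 6-phosphofructo-2-kinase/fructose-2,6-bisphosphatase enzymes (r = 0.99), an enoyl thioester reductase gene (PAS_chr4_0311, r = 0.98) and PAS_chr3_0527 (r = 0.97).

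Among the 6 genes, the 2 synthase genes had an r of 0.95 over 12 libraries and 0.97 over the 11 without G14_37 replicate 1. Alcohol oxidase and PAS_chr3_0834 had 0.92 and 0.91. Formaldehyde dehydrogenase and alcohol oxidase had 0.64 over 12 libraries and -0.61 over 11, and formate dehydrogenase and alcohol oxidase had 0.70 and 0.16. The alcohol oxidase and synthase genes thus varied together with and without that library. The dehydrogenase genes had an r between 0.41 and 0.82 with these 3 genes over 12 libraries and between -0.72 and 0.51 over 11.

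With all 12 libraries, the 5 genes on each side of each of the 6 genes on its chromosome had median log2 fold changes between -0.41 and 0.58 over the 6 contrasts. In Parent_37 vs. Parent_30, where alcohol oxidase was called, 1 of its 10 neighbours, PAS_chr4_0824, was called up and 0 down. Of the 10 neighbours of PAS_chr3_0834, 0 were called up and 2 down in the same comparison, PAS_chr3_0831 and PAS_chr3_0839. In G14_37 vs. Parent_37, where formaldehyde dehydrogenase was called up, 1 of its neighbours was called, down (PAS_chr3_1247). In G14_37 vs. Parent_30, 2 neighbours of alcohol oxidase (PAS_chr4_0820 and PAS_chr4_0828) and 2 of PAS_chr4_0152 (PAS_chr4_0148 and PAS_chr4_0151) were called up.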

How the data were processed

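The authors deposited 1 table of FPKM values with the positions, lengths and descriptions of 5040 annotated genes and 40 further transcripts. Clean paired-end reads of 150 bp had been mapped to a *K. phaffii* genome with PICHIAGENOME gene models, and the submitters' processing notes name CASAVA, HISAT2 2.0.5 and featureCounts 1.5.0-p3. The sources used here do not give the strand setting or the treatment of reads that map to several genes. The product of value and gene length came out as a whole number of fragments for 100% of rows (tolerance 0.05), so fragment counts could be recovered.

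The deposited FPKM values were taken as log2(FPKM + 1). A minimum mean of 1 FPKM removed 0 rows. limma 3.58.1 in R 4.3.3 fitted the 4 group means with an expression trend on all 5080 rows, with 8 residual degrees of freedom, and p-values were adjusted over all rows by the Benjamini-Hochberg method. The design had assumed that the lowest value of a library might mark rows without fragments. This was not met, and the values were used as deposited. limma was tested on simulated data. Replicates are biological per the labels. The genes named are all 6 members, other pathway genes called in a contrast, the 3 listed regulators, the 3 genes most like each member among rows with a mean of at least 10 FPKM, and neighbours called with a member. The members and lists were chosen with earlier results of these data known. The authors used a count model, which was not applied to FPKM. Replicate numbers were not used as pairs. Alternatives were another pseudocount, subtraction of the lowest value, other filters, median-of-ratios and TPM scaling. Further ones were voom on recovered fragments, limma treat, a replicate block, fits of 2 groups alone and leaving out each library. Median-of-ratios scaling could hardly change a result, as its factor was the same in all 12 libraries. Fitting without a filter could not change one, as the filter removed 0 rows.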

Additional observations from a re-analysis of the deposited data

Results flagged for a closer look

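The difference between the heat responses of G14 and the parent was 1.70 on the log2 scale for formaldehyde dehydrogenase (PAS_chr3_1028, limma adjusted p = 0.0627), where all 3 libraries at 37 °C were lower than those at 30 °C in the parent and all 3 were higher in G14. Of the other pathway genes, this difference was 0.79 for the transketolase gene PAS_chr1-4_0150 (limma adjusted p = 0.00867), which was between 530 and 562 FPKM in Parent_30 and between 262 and 298 FPKM in Parent_37, and between 378 and 415 FPKM in G14_30 and between 289 and 402 FPKM in G14_37. It was -0.82 for the aldolase gene PAS_chr1-1_0319 (limma adjusted p = 0.0120), which was between 27.7 and 34.7 FPKM in Parent_30 and between 79.8 and 89.3 FPKM in Parent_37, and between 15.1 and 18.8 FPKM in G14_30 and between 23.2 and 34.5 FPKM in G14_37. It was 0.72 for the zinc cluster activator gene PAS_chr4_0203 (limma adjusted p = 0.00807), where all 3 libraries at 37 °C were lower than those at 30 °C in the parent and the ranges overlapped in G14. With all 12 libraries, none of these differences passed the fold that a call needs together with the adjusted p. Without G14_37 replicate 1, 1 of the 16 other pathway genes was called up and 1 down for this difference, against 17.1% of all rows in either direction. A limma adjusted p under 0.05 was then reached by 8 of the 16, against 45.9% of all rows.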

How the results depend on the processing

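Of the 6 genes, the number called in Parent_37 vs. Parent_30 was 2, and 1 with the lowest value subtracted, 1 with voom and 0 with limma treat. In G14_37 vs. G14_30 it was 0, and 4 with TPM. In G14_30 vs. Parent_30 it was 0, and 1 in a fit of the 2 groups alone. In G14_37 vs. Parent_37 it was 1, and 2 with TPM, 0 with treat and 0 with the 2 groups alone. In G14_37 vs. Parent_30 it was 2, and 5 with TPM, 0 with treat and 0 with the 2 groups alone. For the difference in heat response it was 0, and 1 with voom. Leaving out 1 library gave 1 to 2, 0 to 4, 0 to 1, 0 to 2, 2 to 4 and 0 to 1 calls in these 6 contrasts. Over all 5080 rows, treat called 412, 2, 100, 452, 172 and 114 in these 6 contrasts. Without these changes of setting, 1096, 192, 374, 1102, 656 and 783 rows were called. In G14_37 vs. G14_30, the rows called numbered 45 with the 2 groups alone and 423 without G14_37 replicate 3. The causes of these changes were not tested. With TPM, the number of all rows called is not given, so those counts are not read as a trait of the 6 genes. The same limit holds for the counts with TPM of the other pathway genes below.

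Of the 16 other pathway genes, treat called 1, 0, 0, 1 and 1 in the 5 comparisons, TPM called 4 in G14_37 vs. G14_30 and 1 for the difference in heat response, and the 2 groups alone called 0 in G14_37 vs. G14_30. Without replicate 1, a fit of G14_37 and Parent_37 alone, chosen after seeing the data, called 6. Leaving out 1 library gave 3 to 7, 0 to 3, 2 to 3, 2 to 6, 3 to 5 and 0 to 2 calls. Same-numbered libraries of different groups had correlations of their deviations between -0.22 and 0.67, over 0.1 in 8 of 18 pairs, not every library correlated best with its own number, and the labels name no shared batch. The replicate block moved 1 count, the difference in heat response from 0 to 1, and no count of the 6 genes.

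Some log2 fold changes reversed. That of formate dehydrogenase (PAS_chr3_0932) in G14_37 vs. Parent_30 went from 0.08 to -0.10 with a pseudocount of 0.1 and -0.16 with voom, and ran from -3.29 to 1.95 when 1 library was left out. When 1 library was left out, it ran from -0.43 to 4.82 in G14_37 vs. G14_30, from -4.07 to 1.17 in G14_37 vs. Parent_37 and from -1.21 to 4.03 for the difference in heat response, each lowest value being that without G14_37 replicate 1. PAS_chr3_0832 in G14_37 vs. Parent_37 went from -0.01 to 0.11 with the lowest value subtracted and 0.28 with TPM, and ran from -0.46 to 0.24 without 1 library. Its difference in heat response was 0.00472 with TPM and ran from -0.55 to 0.16. Alcohol oxidase ran from -0.45 to 0.98 in G14_37 vs. Parent_37, and its difference in heat response was 0.094 with the lowest value subtracted and 0.060 with TPM and ran from -0.98 to 0.45. The difference in heat response of PAS_chr4_0152 ran from -0.056 to 0.82. The log2 ratio of PAS_chr4_0152 to alcohol oxidase in G14_37 vs. Parent_37 ran from -0.038 to 0.68, and that of the synthase genes in G14_30 vs. Parent_30 from -0.033 to 0.098. The cause of these reversals under other settings was not tested.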
